A study of Mus musculus with 8 samples.

Results

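The 40 genes described here encode the thioredoxin and glutathione systems and the antioxidant enzymes allied to them, and they were taken by symbol from a table of 16308 genes measured in naive and Th17 CD4 T cells. All 40 were present in the table. They comprise 6 peroxiredoxins, 4 glutathione peroxidases, 6 genes of the thioredoxin system, 4 glutaredoxins, 4 genes of glutathione synthesis and reduction, 7 glutathione transferases, 3 superoxide dismutase and catalase genes, 4 heme oxygenase and quinone reductase genes, and the transcription factor gene Nfe2l2 with its inhibitor Keap1.

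The cells were CD4 T cells of C57BL/6 mice. Naive cells were untreated. Th17 cells, T helper cells that secrete interleukin-17, were grown from naive cells for 72 h in the presence of 0.25 µg/mL of antibody to CD3 with 1 µg/mL of antibody to CD28, 0.1 ng/mL of TGF-β and 20 ng/mL of IL-6. These figures come from the treatment field of the labels; the growth protocol allows up to 5.0 ng/mL of TGF-β, and the treatment protocol names 48 as well as 72 h. Ribosome-depleted RNA was sequenced in 2 naive and 2 Th17 libraries, described as independent biological replicates. Naive library 2 and Th17 library 2 carry the same number in their descriptions and the other libraries carry different ones, and whether that number marks a shared mouse is not given in the sources used here. A further 2 wild-type and 2 DDX5-deficient Th17 libraries of the same strain, culture and time, the last lacking the RNA helicase DDX5 (named DDX5∆T in the titles), entered only through a list of RNA editing sites. The naive and Th17 samples have no genotype field, and the headers of the gene table call all 4 of them WT with a prefix, Malat1, whose meaning is not given in the sources used here. Age, sex, pooling of mice and the means of deleting DDX5 are also not given there.

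Thioredoxin and glutathione are the main carriers of reducing power for protein thiols and peroxides. Thioredoxin (Txn1 in the cytosol, Txn2 in mitochondria) reduces peroxiredoxins, which break down hydrogen peroxide, and is itself reduced by thioredoxin reductase at the expense of NADPH. Txnip binds and inhibits thioredoxin and also limits glucose uptake. Glutathione is made by the glutamate-cysteine ligase Gclc with its modifier Gclm and then by Gss, is returned to its reduced form by Gsr, and serves peroxidases, glutaredoxins and transferases. Many of these genes are known targets of NRF2, the product of Nfe2l2, which KEAP1 marks for degradation and which binds a short sequence called the antioxidant response element. T cells that are activated are known to need both systems to divide.

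The sequence through which NRF2 is known to act was looked for in the promoters, because the table holds RNA only. The core TGACNNNGC (N is any base, both strands) occurred in the window from 250 bases before to 50 bases after at least 1 RefSeq start site in 7 of the 34 members with an entry (46 start sites), namely Nfe2l2, Srxn1, Gstm5, Gclm, Prdx1, Txnrd1 and Sod1. It occurred in 14% of all genes with such an entry. The E-box CACGTG, which Myc and Mondo proteins bind and which is its own reverse complement, occurred in 2 of the 34, Glrx2 and Prdx4, against 8.09% of all genes. A match describes letters only, and neither motif contains the other. The stretches below, from RefSeq on GRCm38.p6, 5′ to 3′ on the gene's strand with the core or its reverse complement in capitals, come from 2 genes that rose in Th17 cells (Prdx1, Txnrd1), 2 that were not called (Gclm, Sod1) and 1 that fell (Nfe2l2).
Prdx1 (chr4:116685456-116685484, plus strand): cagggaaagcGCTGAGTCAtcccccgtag
Txnrd1 (chr10:82859104-82859132, plus strand): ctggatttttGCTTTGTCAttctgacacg
Gclm (chr3:122245413-122245441, plus strand): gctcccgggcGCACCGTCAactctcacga
Sod1 (chr16:90220696-90220724, plus strand): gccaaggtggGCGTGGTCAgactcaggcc
Nfe2l2 (chr2:75704885-75704913, minus strand): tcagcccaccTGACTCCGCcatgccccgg
All 5 lie before a RefSeq start site, from base -250 at the far end in Nfe2l2 to base -38 at the near end in Sod1. In Txnrd1 that start site is inside the gene, whose annotated span begins at 82833951. Of all members with the core, Srxn1, Gstm5, Txnrd1 and Prdx1 were called higher, Gclm and Sod1 were not called and Nfe2l2 was lower. Srxn1 and Gstm5 are not among the printed stretches. The part of NRF2 in these changes was not tested.

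The naive libraries held 20426728 and 16154625 reads on genes, and the Th17 libraries 26624436 and 11768994. Levels are given as CPM, read counts put on a common scale with TMM factors, in the order naive library 1, naive library 2, Th17 library 1 and Th17 library 2. The summed CPM of 9 Th17 markers was 47.4, 48.3, 4394 and 3954, and that of 7 naive markers 7285, 7565, 1266 and 1185, so the markers followed the labels. Markers of other cells, in the same order, summed to 2.49, 3.17, 0.659 and 1.36 CPM for 8 B cell genes, 27.9, 18.4, 8.71 and 10.4 for 12 myeloid genes and 6.69, 4.30, 83.7 and 88.2 for 7 dendritic cell genes, the last mostly H2-Ab1. The sums were 5766, 6461, 2915 and 2573 for 8 CD4 T cell genes and 92.5, 108, 54.9 and 53.7 for 9 CD8 and NK genes. The B cell genes Ms4a1 and Cr2 and the dendritic cell gene Xcr1 had 0 naive reads, and Blk (B cell), Siglech and Clec9a (dendritic cell) had 0 Th17 reads. The part of these cells in the members' changes was not tested. In RNA from a whole culture, a change in the share of cells that express a gene and a change per cell cannot be told apart.

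Th17 library 2 stood apart. The summed CPM of 16 kidney tubule markers, chosen after their values were seen, was 2.12, 1.90, 1.35 and 2088, and that of 12 fibroblast markers, chosen likewise, was 2.28, 0.845, 285 and 2931. Kap, a gene of the kidney tubule, had 13037 reads in Th17 library 2 and 0 in Th17 library 1. Of the 285 CPM of fibroblast markers in Th17 library 1, Lum made up 257. Among the 39 members with at least 10 reads in both Th17 libraries, Gpx8, Gstm5 and Nqo1 were at least 2 times higher in library 2 than in library 1, as were 5.64% of all tested genes with such reads. Gsta4, with 3 reads in library 1, was 32.8 times higher in library 2. Gclm, Gss and Cat were 1.78, 1.68 and 1.53 times higher there. For these 7 genes the value of Th17 library 1 alone is given beside the result, and the part of the foreign RNA in it was not tested. A fit with 1 Th17 library takes its spread from the naive libraries alone, so no p-value of it is given for them. Higher values in library 2 were not confined to these 7 genes. Library 2 was above library 1 in 25 of the 39 members. The median log2 of library 2 over library 1 was 0.05 in these members and -0.07 in all tested genes with such reads. Mgst3 and Prdx5 were 1.38 and 1.37 times higher in library 2. From Th17 library 1 alone their log2 fold changes were 1.69 and 0.95, in place of 1.93 and 1.19.

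**Figure D1:**
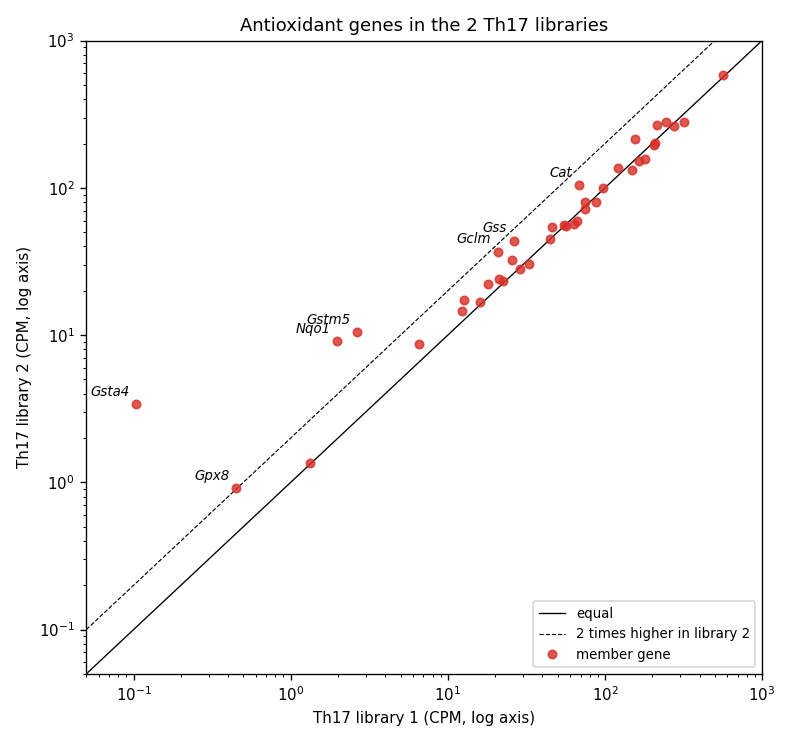
CPM of the member genes with reads in both Th17 libraries, library 1 on the horizontal and library 2 on the vertical axis, both logarithmic; the solid line marks equal levels and the dashed line a level 2 times higher in library 2. Most genes lie along the solid line, Gsta4, Gstm5 and Nqo1 lie above the dashed line, and Gpx8 lies on it at 0.451 and 0.909 CPM.

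Of the 39 members with enough reads to be tested, Th17 cells had more RNA of 22 and less of 7. A call required a Benjamini-Hochberg adjusted p below 0.05 in the quasi-likelihood test of edgeR, with the adjustment over all 11989 tested genes, and every adjusted p given here is of that test. Over all tested genes 34.3% were called higher and 30.7% lower. By a log2 fold change of at least 1, 16 members were higher and 3 lower, against 24.8% and 18.0% of all tested genes. Both Th17 libraries lay above both naive libraries in 24 members, both lay below in 9, and the groups overlapped in 7. The same counts over all tested genes were not made, so these describe the members alone. The median log2 fold change (Th17 over naive) of the 39 was 0.62, and that of all tested genes 0.06. A fit with 1 naive library takes its spread from the Th17 libraries alone, the one with kidney RNA included. A call lost in such a fit therefore does not show that the change rests on the naive library left out. Leaving out naive library 1 left 11 members higher and 6 lower, and leaving out naive library 2 left 15 higher and 4 lower. Over all genes 2436 and 2380 were then called higher, in place of 4116. Without Th17 library 2, 20 members were higher and 8 lower.

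The naive libraries differed from each other in these genes. Library 2 was above library 1 in 33 of the 34 members with at least 10 reads in both, by a median log2 of 0.29, whereas it was above in 51.2% of all tested genes. The share followed exon length across all tested genes, from 73.9% in genes with under 2 kb of exon to 30.8% in genes over 6 kb, and the median change between naive and Th17 cells (log2) fell from 0.26 to -0.04 over the same bins. The members had a median of 3.05 kb of exon and all tested genes 4.47 kb. The part of length in the members' changes was not tested. By bin of exon length, library 2 was above library 1 in 7 of 7 members under 2 kb. The counts were 13 of 14 from 2 to 4 kb and 9 of 9 from 4 to 6 kb. Over 6 kb the count was 4 of 4. With almost every member above, these counts cannot show whether the members' difference varied with length.

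**Figure D2:**
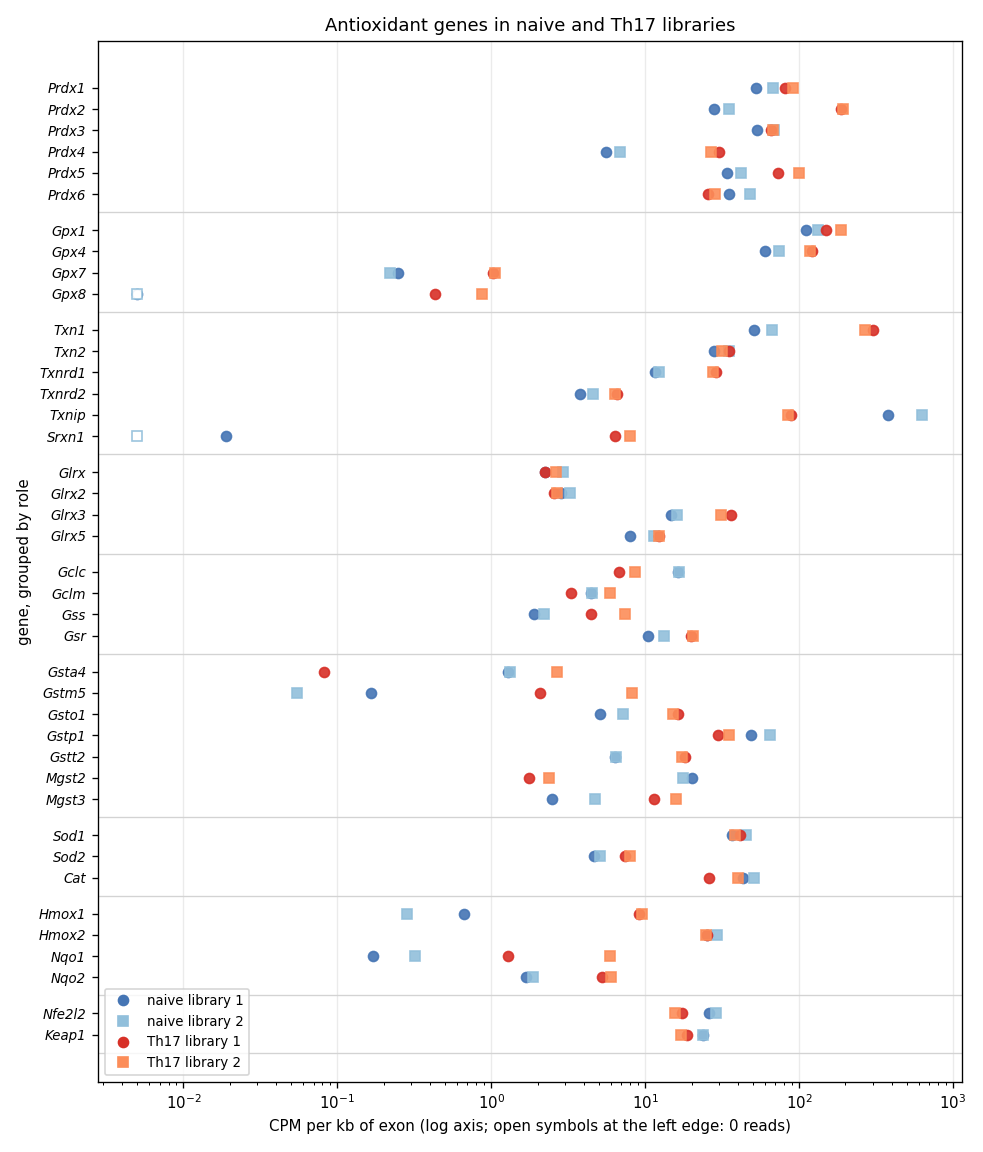
CPM per kb of exon (logarithmic axis) of the 40 genes in each of the 4 libraries, grouped by role; blue symbols are naive and red or orange symbols Th17 libraries, and open symbols at the left edge mark 0 reads. Srxn1, Gstm5, Hmox1 and Nqo1 show the widest gaps upward among genes with naive reads, and Txnip and Mgst2 the widest downward.

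In the thioredoxin system, thioredoxin and its inhibitor changed in opposite directions. Txnip (ENSMUSG00000038393, chromosome 3, 96557957 to 96561883) stood at 1182 and 1975 CPM in naive and at 275 and 263 CPM in Th17 libraries. Every Th17 value was below every naive value, although the naive libraries themselves were far apart. Txnip fell by 2.55 on the log2 scale (SE 0.27, adjusted p = 8.2e-05). Txn1, the cytosolic thioredoxin (ENSMUSG00000028367, chromosome 4, 57943373 to 57956411), went from 53.5 and 70.1 to 318 and 281 CPM. It rose by a log2 of 2.28 (SE 0.19, adjusted p = 1.1e-05), with no overlap. Compared per kb of exon, Txnip RNA exceeded Txn1 RNA by 7.43 and 9.48 times in the naive libraries. In the Th17 libraries the ratio was 0.291 and 0.315. Among the 40 genes ranked by mean CPM per kb, Txnip was first in naive cells at 505, ahead of Gpx1 at 122, and Txn1 was first in Th17 cells at 285, ahead of Prdx2 at 189. An antisense gene, Gm15441, shares 19.4% of the exon bases of Txnip, and whether reads were counted by strand is not given in the sources used here.

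The mitochondrial thioredoxin did not move with the cytosolic one. Txn2 had 117, 148, 148 and 133 CPM, and its groups overlapped (log2 0.09, SE 0.17, adjusted p = 0.67). Per kb, Txn1 RNA was 1.84 and 1.90 times that of Txn2 in naive and 8.62 and 8.48 times in Th17 libraries. Of the reductases, cytosolic Txnrd1 rose from 81.7 and 87.4 to 205 and 195 CPM (log2 1.24, SE 0.15, adjusted p = 1.1e-04). Mitochondrial Txnrd2 rose by less, from 16.7 and 20.3 to 29.0 and 27.9 CPM (log2 0.62, SE 0.18, adjusted p = 0.013), and was not called without naive library 1 (adjusted p = 0.10). That these rises differ was not tested. Srxn1 (ENSMUSG00000032802, chromosome 2, 152105516 to 152111376), the sulfiredoxin that repairs overoxidized peroxiredoxins, was all but absent from naive cells. It had 1 read and 0 reads in the naive libraries and 517 and 296 reads in the Th17 libraries, 17.9 and 22.4 CPM. The ratio was 639, with an exact conditional binomial 95% interval of 114 to 25284 that covers counting error only, and the adjusted p was 1.4e-06. In all, 4 of the 6 genes of the system rose and 1 fell.

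**Figure D3:**
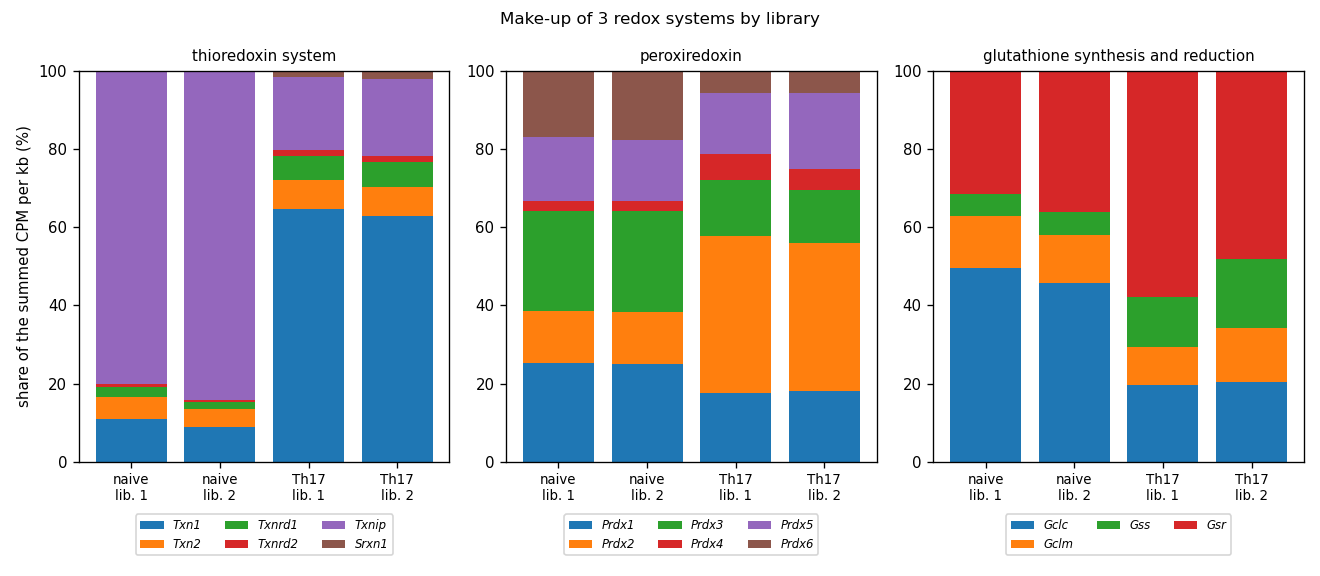
Share in percent of the summed CPM per kb that each gene takes in the thioredoxin system, the peroxiredoxins and the genes of glutathione synthesis and reduction, with 1 stacked bar for each library. Txnip falls from 80.1% and 84.2% to 18.8% and 19.8% of the thioredoxin system, Prdx2 grows from 13.4% and 13.1% to 40.4% and 38.0% of the peroxiredoxins, and Gclc falls from 49.5% and 45.7% to 19.7% and 20.4% of the glutathione genes.

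Peroxiredoxins use a reactive cysteine to break down peroxides, and the family shifted toward Prdx2. Prdx2, a cytosolic member (ENSMUSG00000005161, chromosome 8, 84969587 to 84974834), had 85.0 and 107 CPM in naive and 567 and 586 CPM in Th17 libraries. The groups were far apart and the Th17 libraries nearly equal. Its log2 fold change was 2.59 (SE 0.19, adjusted p = 4.9e-06). Opposite-strand exons of Junb and Rnaseh2a cover 5.67% and 5.80% of its exon bases, and Junb reads rose from 3134 and 4059 to 29008 and 12953. Prdx1, its cytosolic relative, went from 160 and 205 to 245 and 279 CPM (log2 0.52, SE 0.18, adjusted p = 0.029). The call for Prdx1 was lost without Th17 library 2 (log2 0.43, adjusted p = 0.11) and without either naive library (adjusted p = 0.22 and 0.073), and also without the filter on low counts (0.072) or with a stricter one (0.057). Per kb, Prdx2 RNA was 0.529 and 0.522 of Prdx1 RNA in naive and 2.31 and 2.10 times it in Th17 libraries.

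Prdx4, the peroxiredoxin of the endoplasmic reticulum, where it feeds oxidizing power into protein folding, rose from 11.7 and 14.4 to 63.2 and 56.7 CPM (log2 2.20, SE 0.17, adjusted p = 8.3e-06). Prdx5, found in mitochondria, peroxisomes and cytosol, rose from 72.7 and 89.1 to 156 and 213 CPM (log2 1.19, SE 0.20, adjusted p = 7.6e-04). Both had Th17 libraries wholly above naive ones. The Prdx5 call was not made with a single naive library, where its log2 was 1.01 (without library 1) and 1.27 (without library 2). The gene shares 19.1% of its exon bases with Trmt112 on the other strand. Prdx3, the mitochondrial member, had 78.7, 102, 97.5 and 100 CPM, and the groups overlapped (log2 0.13, SE 0.17, adjusted p = 0.53). Prdx6, which reduces phospholipid peroxides with glutathione rather than thioredoxin, was the 1 member of the family that fell. It went from 169 and 229 to 122 and 136 CPM (log2 -0.63, SE 0.18, adjusted p = 0.014). The call for Prdx6 was lost without naive library 2 (log2 -0.47, adjusted p = 0.097) and with upper-quartile scaling (log2 -0.51, adjusted p = 0.053). Its share of the peroxiredoxin RNA per kb was 16.9% and 17.8% in naive and 5.50% and 5.58% in Th17 libraries.

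Glutathione peroxidases reduce peroxides with glutathione, and all 3 tested members were called higher, although only Gpx4 held in every alternative. Gpx4, the selenoprotein that reduces lipid peroxides in membranes and guards against ferroptosis, had 103 and 127 CPM in naive and 208 and 201 CPM in Th17 libraries. Its groups did not overlap, and it rose by a log2 of 0.84 (SE 0.16, adjusted p = 0.0019). Gpx1, the abundant cytosolic selenoenzyme, went from 160 and 192 to 216 and 269 CPM (log2 0.46, SE 0.18, adjusted p = 0.047). The Gpx1 call was lost when any library but Th17 library 1 was left out, with log2 0.30 (adjusted p = 0.28) without Th17 library 2, and also without the filter on low counts (0.10) or with a stricter one (0.082). Gpx7 and Gpx8 are peroxidases of the endoplasmic reticulum and were scarce. Gpx7 had 6 and 4 naive reads and 38 and 18 Th17 reads, or 0.318, 0.282, 1.32 and 1.36 CPM (log2 2.13, SE 0.64, adjusted p = 0.016), and was lost with a single naive library (adjusted p = 0.24 each), without the filter on low counts (0.14) or with a stricter one (0.11), and with DESeq2 (0.084). Gpx8 had 0 naive reads and 13 and 12 Th17 reads, too few to be tested. It was at least 3.67-fold higher, taking 3 reads in each naive library as the floor, with 0.451 CPM in Th17 library 1 and 0.909 in library 2. From Th17 library 1 alone the bound was 2.43-fold.

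Glutaredoxins, which use glutathione to reduce protein disulfides and to handle iron-sulfur clusters, moved little. Glrx3, a cytosolic iron-sulfur carrier, was the 1 of 4 that rose, from 73.4 and 81.1 to 181 and 157 CPM (log2 1.13, SE 0.16, adjusted p = 2.7e-04). Glrx, the cytosolic disulfide reductase, had 12.3, 16.1, 12.3 and 14.5 CPM. Glrx2, its mitochondrial relative, had 24.8, 28.5, 22.4 and 23.3 CPM. Glrx5, which serves iron-sulfur assembly in mitochondria, had 29.5, 42.2, 45.0 and 45.1 CPM. The groups overlapped in Glrx, the Th17 libraries were both lower in Glrx2 and both higher in Glrx5, and the adjusted p of the 3 was 0.75, 0.26 and 0.15.

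In glutathione synthesis the first and the second step moved apart. Gclc, the catalytic subunit of glutamate-cysteine ligase and the rate-limiting enzyme of the pathway (ENSMUSG00000032350, chromosome 9, 77754535 to 77794485), had 61.8 and 62.9 CPM in naive and 25.5 and 32.4 CPM in Th17 libraries. The naive libraries were nearly equal and both Th17 libraries lower. Gclc fell by 1.11 on the log2 scale (SE 0.17, adjusted p = 4.1e-04). Gclm, its modifier subunit, had 27.8, 28.3, 20.8 and 36.9 CPM, with the Th17 libraries on either side of the naive ones (log2 0.03, SE 0.28, adjusted p = 0.92). Taken from Th17 library 1 alone, the Gclm log2 was -0.43. Per kb, Gclc RNA was 3.72 and 3.71 times Gclm RNA in naive and 2.05 and 1.46 times in Th17 libraries, so the ratio was lower in both, with the lower value in the library that holds kidney RNA.

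Gss, glutathione synthetase, which adds glycine in the second step, went from 11.3 and 13.0 to 26.2 and 43.9 CPM (log2 1.52, SE 0.27, adjusted p = 0.0019). Taken from Th17 library 1 alone, the Gss log2 was 1.11. The Gss call was lost when either naive library was left out (adjusted p = 0.13 and 0.11). Gsr, glutathione reductase, rose from 28.6 and 36.3 to 54.8 and 55.9 CPM (log2 0.77, SE 0.17, adjusted p = 0.0032), with an adjusted p of 0.051 without naive library 1. Gsr took 31.4% and 36.0% of the RNA per kb of the 4 glutathione genes in naive libraries and 57.8% and 48.1% in Th17 libraries.

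Glutathione transferases couple glutathione to electrophiles, and the 7 members split, with 4 higher and 2 lower. The largest fall among all 40 genes was that of Mgst2 (ENSMUSG00000074604, chromosome 3, 51660360 to 51682677), a microsomal enzyme that can also make leukotriene C4. It had 74.7 and 65.0 CPM in naive and 6.52 and 8.71 CPM in Th17 libraries, and fell by 3.21 on the log2 scale (SE 0.20, adjusted p = 1.9e-06). Its relative Mgst3 went the other way, from 2.71 and 5.21 to 12.6 and 17.4 CPM (log2 1.93, SE 0.36, adjusted p = 0.0020), with an adjusted p of 0.067 without naive library 1. Both genes had groups that did not overlap. Gstp1, the pi class enzyme, fell from 76.0 and 101 to 46.1 and 54.5 CPM (log2 -0.81, SE 0.19, adjusted p = 0.0044), and was not called without naive library 2 (adjusted p = 0.077). Gstp1 is uncertain, since similar Gstp copies can take its reads. Gstp2 had 5, 0, 3 and 6 reads, and Gstp3 had 70.7, 68.9, 60.9 and 60.5 CPM.

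Gsto1, an omega class enzyme with glutaredoxin-like activity, rose from 10.3 and 14.5 to 33.0 and 30.5 CPM (log2 1.36, SE 0.21, adjusted p = 4.4e-04). Gstt2, of the theta class, rose from 26.3 and 27.0 to 75.0 and 71.8 CPM (log2 1.46, SE 0.15, adjusted p = 3.8e-05). The Th17 libraries were close to each other in both genes. Gstm5, of the mu class, had 4 and 1 naive reads against 76 and 138 Th17 reads, or 0.212, 0.0704, 2.64 and 10.5 CPM (log2 5.39, SE 0.94, adjusted p = 0.0023). From Th17 library 1 alone its log2 was 4.09. With a single naive library it was not called, at a log2 of 6.39 (without library 1) and 4.85 (without library 2). Gsta4, the alpha class enzyme for lipid aldehydes, had 1.64, 1.69, 0.104 and 3.41 CPM. Its Th17 libraries lay 32.8 times apart, on either side of the naive ones, and the log2 was 0.01 (SE 1.60, adjusted p = 1.00). Without Th17 library 2, the Gsta4 log2 was -3.92, which rests on 3 reads in Th17 library 1.

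Of the superoxide dismutases and catalase, only Sod2 was called. Sod1, the cytosolic copper-zinc enzyme that turns superoxide into peroxide, had 145, 179, 164 and 153 CPM with overlapping groups (log2 -0.03, SE 0.16, adjusted p = 0.87). Sod2, the manganese enzyme of mitochondria, rose from 46.2 and 50.7 to 74.4 and 79.9 CPM (log2 0.67, SE 0.15, adjusted p = 0.0041), with an adjusted p of 0.058 without naive library 1. Per kb, Sod1 RNA was 7.93 and 8.91 times Sod2 RNA in naive and 5.55 and 4.84 times in Th17 libraries. Cat, the peroxisomal catalase, had 113 and 133 CPM in naive and 68.0 and 104 CPM in Th17 libraries. Both Th17 values were lower, yet the gene missed the threshold (log2 -0.52, SE 0.22, adjusted p = 0.071). Without Th17 library 2 the log2 of Cat was -0.86.

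Heme oxygenases degrade heme to biliverdin, iron and carbon monoxide, and quinone reductases remove quinones without forming radicals. Hmox1, the inducible heme oxygenase (ENSMUSG00000005413, chromosome 8, 75093621 to 75100589), had 22 and 7 naive reads against 461 and 221 Th17 reads, or 1.17, 0.493, 16.0 and 16.7 CPM. It rose by a log2 of 4.26 (SE 0.41, adjusted p = 3.0e-05). Hmox2, the constitutive enzyme, had 55.7, 64.7, 56.3 and 55.3 CPM with overlapping groups (log2 -0.11, SE 0.15, adjusted p = 0.55), and it shares 40.2% of its exon bases with Cdip1 on the other strand. Per kb, the mean of Hmox1 RNA was 0.474 in naive and 9.35 in Th17 cells, and that of Hmox2 was 27.1 and 25.2, so the constitutive gene stayed the higher one.

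Nqo2, a quinone reductase that uses dihydronicotinamide riboside in place of NADPH, rose from 6.84 and 7.53 to 21.3 and 24.1 CPM (log2 1.66, SE 0.20, adjusted p = 1.3e-04). Exons of Serpinb6a on the other strand cover 18.9% of its exon bases, and Serpinb6a reads went from 428 and 300 to 3143 and 1306. Nqo1, the classical NRF2 target, had 5 and 7 naive reads against 57 and 120 Th17 reads, or 0.265, 0.493, 1.98 and 9.09 CPM (log2 3.86, SE 0.88, adjusted p = 0.0079). From Th17 library 1 alone its log2 was 2.41. With a single naive library it was not called, at a log2 of 3.45 (without library 1) and 4.29 (without library 2). Thus 3 of the 4 genes of this role were called higher.

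The regulators of the response were lower at the RNA level. Nfe2l2 (ENSMUSG00000015839, chromosome 2, 75675513 to 75704641) had 98.0 and 109 CPM in naive and 66.0 and 59.5 CPM in Th17 libraries (log2 -0.72, SE 0.16, adjusted p = 0.0032). Keap1 had 112 and 112 CPM in naive and 87.1 and 80.0 CPM in Th17 libraries (log2 -0.42, SE 0.15, adjusted p = 0.032). Neither overlapped between groups. Keap1 was not called when any 1 of the 4 libraries was left out (adjusted p from 0.052 to 0.18), nor with upper-quartile scaling (log2 -0.31, adjusted p = 0.060) or without the filter on low counts (adjusted p = 0.052). NRF2 is regulated mainly through protein stability, which these data do not measure.

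**Figure D4:**
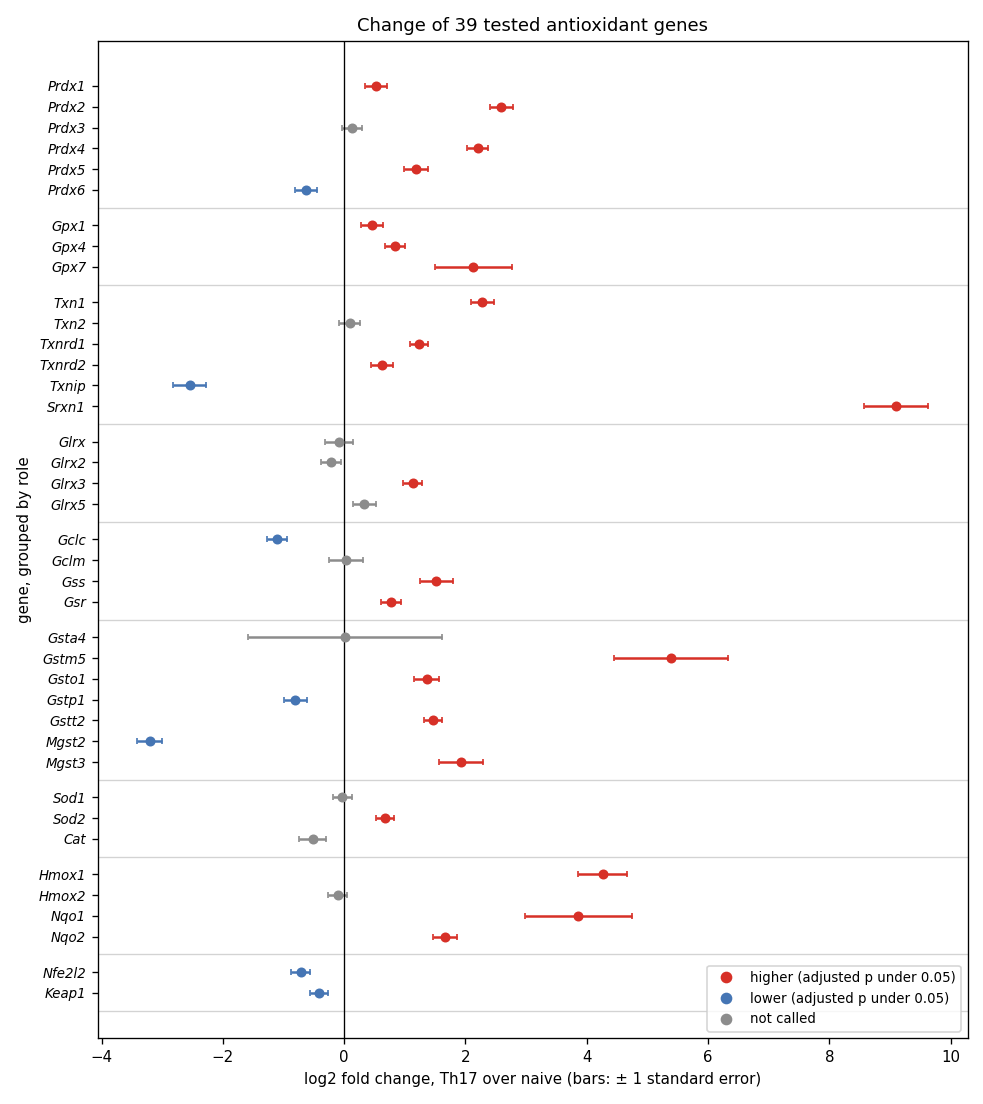
Log2 ratio of Th17 to naive cells, with its sign, for the 39 tested genes, grouped by role, with bars of 1 standard error; red marks genes called higher, blue lower and grey not called. Srxn1 at 9.10, a fitted value that rests on 1 naive read, and Gstm5 at 5.39 lie farthest to the right, and Mgst2 at -3.21 and Txnip at -2.55 farthest to the left.

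Grouped by compartment rather than by role, the 6 members assigned to mitochondria (Prdx3, Txn2, Txnrd2, Glrx2, Glrx5, Sod2) had a median log2 fold change of 0.23, and 2 of them were called, Txnrd2 and Sod2, both higher. The 2 tested members of the endoplasmic reticulum, Prdx4 and Gpx7, were both higher, at 2.20 and 2.13. The other 31 had 18 higher and 7 lower, with a median of 0.77. Assignments rest on textbook locations, and the difference between compartments was not tested. In the authors' deposited table, 21 members were higher, 8 lower and 11 not called, and the calls differed from those given here in 2 genes. In that table Gpx7 was not called (adjusted p = 0.19) and Cat was called lower (adjusted p = 0.0043).

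Genes that work beside the members were read from 12 further lists. Their counts stand beside 34.3% of all tested genes called higher and 30.7% called lower. Of 16 tested genes of cystine import and glutathione handling, 8 were higher and 4 lower (median log2 0.64). The 3 with the largest change had no naive read. Cth, which makes cysteine from cystathionine, had 58.7 and 49.7 CPM in Th17 libraries, at least 293-fold higher. Chac1, which degrades glutathione, had 10.8 and 6.82 CPM, at least 47.6-fold higher, and Cbs, the enzyme before Cth, had 1.77 and 7.73 CPM, at least 25.6-fold higher, or at least 9.55-fold from Th17 library 1 alone. Of 15 other thioredoxin-fold genes, 8 were higher and 4 lower (median log2 0.42), led by Tmx4 (log2 -1.86), Nxn (1.36) and Txndc17 (1.29). Of 12 genes of oxidative folding in the endoplasmic reticulum, where Prdx4 acts, 7 were higher and 2 lower (median log2 0.71). They include the oxidase gene Ero1l at 32.8, 34.0, 556 and 427 CPM (log2 3.88), the disulfide isomerase gene Pdia5 (1 naive read, ratio 278, counting interval 49.5 to 10995) and Sdf2l1 (log2 2.58). With naive library 1 or 2 left out, the counts called higher were 3 or 5 for cystine and glutathione handling and 3 or 4 for the thioredoxin-fold genes, and without Th17 library 1 the latter count was 5.

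The relatives and known activators of Txnip went partly with it. Of 6 tested genes for alpha-arrestins and Mondo factors, 2 were higher and 4 lower (median log2 -1.09). Mlxip, whose product MondoA drives Txnip in response to glucose, went from 179 and 138 to 58.6 and 50.4 CPM (log2 -1.54, SE 0.18, adjusted p = 9.9e-05). Arrdc1 and Arrdc2, arrestins like Txnip, fell with log2 fold changes of -1.52 and -1.33, while Arrdc4 (1.23) and Arrdc3 (0.88) rose, so the 4 Arrdc genes split evenly. These last 2 were named after their values were seen. Of 9 tested genes of NADPH supply, which powers both reductases, 3 were higher and 1 lower (median log2 0.51), namely Pgd (log2 0.98) and Nadk2 (0.78) upward, and Idh2 (-0.69) downward, as the 3 largest. The count higher was 1 without naive library 1 and 5 without either Th17 library, and Arrdc and Mondo genes had 1 and 0 higher without naive library 1 and 2.

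Partners and further targets of NRF2 moved in both directions, as did all tested genes (34.3% higher and 30.7% lower). Of 13 partners and regulators, 4 were higher and 3 lower (30.8% and 23.1%, median log2 -0.05). Bach1, the repressor that holds Hmox1 down, fell from 42.5 and 35.8 to 3.99 and 5.61 CPM (log2 -3.05, SE 0.23, adjusted p = 6.0e-06), Maff, a small Maf partner, rose (log2 2.54), and Brca1 rose (log2 3.55). Of 11 other NRF2 targets, 3 were higher and 4 lower (27.3% and 36.4%, median log2 0.21). Akr1b8 had 0 naive reads and 39.2 and 36.9 CPM in Th17 libraries, at least 206-fold higher, whereas the epoxide hydrolase gene Ephx1 (log2 -2.43) and the carbonyl reductase gene Cbr1 (-1.37) fell. The count of other targets called higher was 5 without Th17 library 1. The targets, like the members and all tested genes, thus held both rises and falls.

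The other enzyme families were mixed. Of 5 other peroxidases and dismutases, 2 were higher and 1 lower (median log2 0.78), with the coenzyme Q reductase gene Aifm2 at 0.371, 0.141, 8.88 and 8.87 CPM (log2 5.03), Ccs, the copper chaperone of Sod1, at a log2 of -0.95, and Park7 at 0.43. Of 11 other glutathione transferases, 6 were higher and 1 lower (median log2 0.94). Gstt1 (0 naive reads, at least 30.8-fold, or 19.9-fold from Th17 library 1 alone) and Gstt3 (ratio 215, counting interval 73.5 to 1047) led. Next was Ptges (1 naive read, ratio 44.8, interval 7.73 to 1801), with a ratio of 33.2 from Th17 library 1 alone. Of 18 selenoprotein and selenocysteine genes, 6 were higher and 5 lower (median log2 0.31). The largest were Selenom (1 naive read, ratio 36.2, interval 6.18 to 1460), Selenoo (log2 -1.67) and Selenon (1.65). From Th17 library 1 alone the Selenom ratio was 27.5. Of 6 methionine sulfoxide reductases and sestrins, 2 were higher and 2 lower (median log2 -0.61), and Sesn2, induced by stress, rose (log2 3.84) while Sesn1 fell (-2.80) and Msrb3 was at least 11.4-fold higher than 0 naive reads, or 6.93-fold from Th17 library 1 alone.

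Of 9 heme and iron genes, 3 were higher and 1 lower (median log2 0.07). The transferrin receptor gene Tfrc had 41.2, 47.2, 1153 and 928 CPM (log2 4.56), Alas1 a log2 of 1.13 and Blvrb a log2 of -1.40. Calls for Park7, Idh2, Cbs, Ptges, Selenom, Msrb3 and Blvrb did not survive the loss of either naive library. The Nadk2 call was lost without naive library 1 and the Park7 call also without either Th17 library. The counts called higher among other glutathione transferases were 2 and 3 without naive library 1 and 2 and 10 without Th17 library 1. Without Th17 library 1, that is with the library that holds kidney RNA alone, 4 other peroxidases and 5 heme and iron genes were higher. Some list genes were high in Th17 library 2 alone, chosen here after their values were seen: Gpx3 had 1.14 and 1096 CPM in the Th17 libraries, Gsta2 had 0 and 26.1, and Me1 0.902 and 22.4. These 3 had at most 1 read in the naive libraries and none was called.

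None of the members was among the genes with a listed A-to-I editing site. The deposited lists hold 869 sites in 349 genes for naive and Th17 cells and 355 sites in 143 genes for wild-type and DDX5-deficient Th17 cells. In the lists of related genes, Selenot had 5 listed sites, Ero1lb 1 and Selenop 1, each with a level in naive cells only. A gene without a listed site may lack coverage there, so absence from the lists sets no limit on editing. Expression of the members in DDX5-deficient cells was not analysed here.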

How the data were processed

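The deposited gene table of 2 naive and 2 Th17 libraries holds read counts per gene as well as the authors' log2 fold changes and adjusted p-values, per the file headers. Per the submitters' processing notes, the tools were featureCounts, STAR 2.6.1a and DESeq2 1.18.1 on the mm10 build; counting options and use of strand are not given in the sources used here. The deposited editing tables give the edited fraction per site and library. Deposited counts were tested with edgeR 4.0.16 in R 4.3.3 (limma 3.58.1): filterByExpr, TMM, robust quasi-likelihood fit on group, two-sided, Benjamini-Hochberg over all tested genes, called at an adjusted p under 0.05. The standard error of a log2 fold change was taken as its size divided by the root of F. The fit was tested on simulated data.

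CPM used TMM-scaled library sizes. Levels of different genes were compared per kb of the union of exons in GENCODE M21 on GRCm38, to which all 40 members matched by identifier. A fold against 0 reads took 3 reads per library as the floor, and with 1 to 3 reads the ratio has an exact conditional binomial 95% interval; both cover counting error only, since reads copied by PCR, with no molecular identifier, can stem from 1 molecule. With 2 libraries per group an exact permutation test cannot go below p = 0.333 (two-sided), so the model across all genes was used. The 40 members were all to be described, and up to 3 called genes with the largest absolute log2 fold change were named from each related list. The members and lists were chosen with earlier results of these data known, the kidney and fibroblast markers after their values were seen. A related list and a marker list are not reported here. Alternatives were RLE and upper-quartile scaling, no filter, a minimum mean normalized count of 10, DESeq2 1.42.0, each library left out and a replicate block.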

Additional observations from a re-analysis of the deposited data

How the results depend on the processing

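Of 390 comparisons of a tested member with 1 of 10 alternatives, 335 kept direction and side of the threshold, 36 fell short of it, 2 passed it (both Cat) and 17 changed sign, all 17 in 7 members that were not called. Leaving out 1 library at a time, the log2 ran from -0.09 to 0.25 in Prdx3, -0.12 to 0.19 in Txn2, -0.31 to 0.05 in Glrx, -0.43 to 0.36 in Gclm and -0.22 to 0.05 in Sod1. In Gsta4 it ran from -3.92, which rests on 3 reads in Th17 library 1, to 1.00. Upper-quartile scaling gave 0.03 in Glrx, 0.08 in Sod1 and 0.01 in Hmox2, and no filter gave -0.00 in Gclm. The call was the same in every alternative in 23 members, 15 of them called. Leaving out 1 library at a time gave 11 to 22 members higher and 4 to 8 lower, and over all genes 2380 to 4847 higher and 2567 to 3672 lower. A group left with 1 library was assumed to vary like the other group. Upper-quartile scaling shifted the median log2 of all genes by 0.11, with 22 members higher and 5 lower. No source says that the replicate numbers pair the samples, and deviations of same-numbered libraries correlated at -0.0345, although the library 2 pair shares a number in its descriptions. With the replicate block 22 members were higher and 8 lower, the added one being Cat (log2 -0.55, adjusted p = 0.015), with Gclm at -0.02 and Gsta4 at -1.07, and 4094 and 3644 of all genes. In Th17 library 2, the shallowest with 11768994 reads, the floor put 3 reads at 0.227 CPM, so levels near that of Gpx8 rest on few reads.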
